A study of Rattus norvegicus with 22 samples.

Results

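Penetrating ballistic-like brain injury (PBBI) was compared with sham surgery in the ipsilateral cortex, the side of the probe, 24 h after the procedure. The comparison takes every library labelled as ipsilateral, which is 11 of the 22 libraries of the series, 6 from PBBI rats and 5 from sham rats, each from a different rat. All were adult male Sprague-Daley rats, as the labels spell the strain, and all had been implanted with electrodes for recording sleep some days before. In the PBBI rats the right frontal pole of the skull was opened and a probe was driven into the brain, where a balloon at its tip was inflated and deflated for a moment to leave a cavity. Sham rats went through the same steps, the opening of the skull included, without the probe. The 11 contralateral libraries come from the other hemisphere of the same rats and carry the same electrodes, and they are used here only to ask whether a change differed between hemispheres. The sham cortex is therefore not naive cortex, and the procedures of the groups differ in the probe and the balloon.

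A penetrating wound tears vessels and lets blood proteins and leukocytes into the tissue. Resident microglia and astrocytes respond within hours by releasing chemokines, which draw neutrophils and monocytes from the blood, and cytokines, which act through JAK-STAT and NF-kB signaling. In the following days glia divide, astrocytes take on a reactive state with more intermediate filament protein, matrix and protease inhibitors are laid down, and neurons whose axons were cut switch on a growth program. RNA of whole tissue adds all of these together, so that fewer cells of a type and less RNA per cell cannot be told apart in any value below.

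Total counts on genes were between 42085341 and 63412426 in the 11 libraries. Levels are given as CPM, counts scaled to the size of the library, after TMM, a correction for differences in library composition, and a change as log2 fold change of PBBI over sham with its standard error (SE). PBBI rats are summarised by the lowest, the median and the highest of the 6, and sham rats are given singly in the order of rats 82, 84, 86, 91 and 94. A gene was called at a Benjamini-Hochberg adjusted p of 0.05 or less in the quasi-likelihood test of edgeR. Of 16104 genes tested, 753 (4.68%) were called, 659 (4.09%) of them higher and 94 (0.584%) lower in PBBI. An unadjusted p under 0.05 was reached by 1764 genes with a higher and 960 genes with a lower level. The median log2 fold change was 2.19 among the genes called higher and -1.18 among those called lower, and 377 of the former but 9 of the latter changed by 2 or more on the log2 scale.

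**Figure D1:**
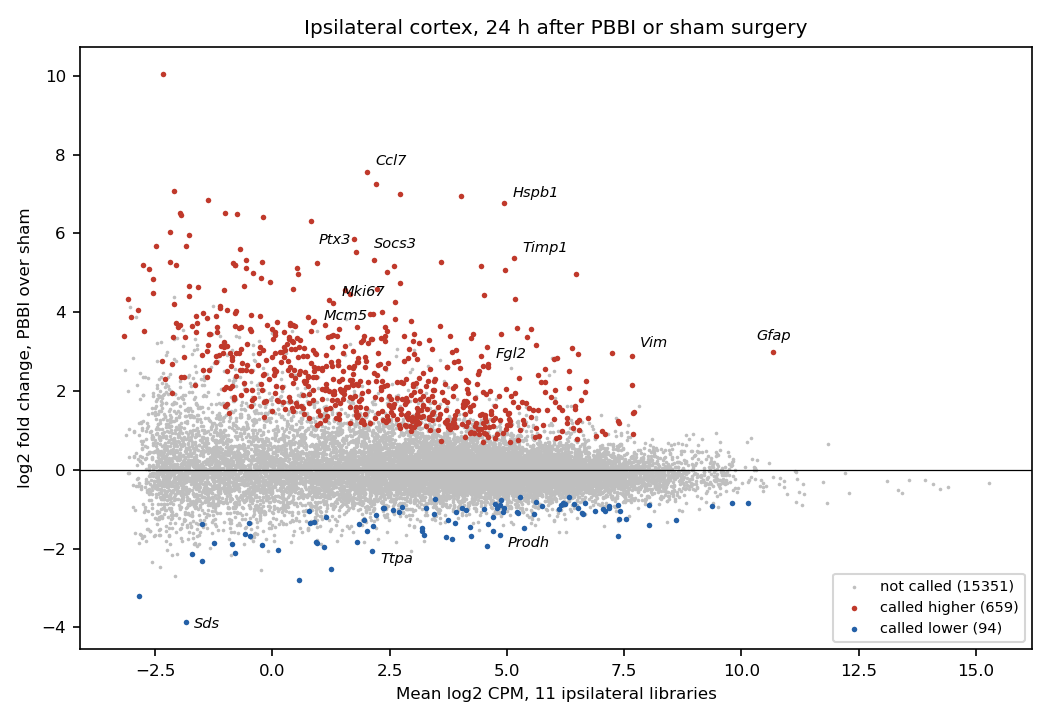
Log2 fold change of PBBI over sham (vertical axis) against the mean log2 CPM of the 11 ipsilateral libraries (horizontal axis) for the 16104 genes tested. Red points are the 659 genes called higher, blue points the 94 called lower and grey points the rest, and the labelled genes are described in the text.

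Gene names bear on every count that follows. The count table carries Ensembl identifiers, and symbols could be given to those in the study's own lists of changed genes, so that 1680 of the tested genes had a symbol and they were mostly genes that the study had called on these same libraries. Among these 1680, 738 (43.9%) were called, as 644 (38.3%) were higher and 94 (5.6%) were lower, and their median log2 fold change was 1.25 against -0.02 over all genes tested. A gene group below is therefore described beside these shares, and a share near 38.3% is what a named gene had in any group.

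One injured library stood apart. The library of PBBI rat 85 lay at 200.1 on the first principal component, which carried 49.8% of the variance, while the other 10 lay between -71.9 and 72.9. Its log2 CPM correlated on average at 0.824 with those of the other injured rats, against 0.928 to 0.940 for the other 5. Its 100 most abundant genes took 35.0% of the counts, against 27.3 to 30.3% in the other PBBI rats and 30.6 to 34.1% in sham. Without rat 85, 1361 of 15978 genes tested (8.52%) were called higher and 825 (5.16%) lower, and among named genes 957 (57.8%) and 243 (14.7%). Without any 1 of the others the total was 393, 1158, 394, 459 and 435 for PBBI rats 81, 83, 88, 90 and 96, and 359, 355, 396, 316 and 465 for sham rats 82, 84, 86, 91 and 94, against 753 with all rats. With weights for the quality of each library in limma voom, 2401 genes were called higher and 2613 lower. Counts of each gene group are therefore given with and without rat 85 and as the range of the count, the number called, over the fits that each leave out 1 of the rats that change it by more than 1.5 times. PBBI rat 83 differed in another way. Of the 659 genes called higher, 546 exceeded every sham rat in rat 83 and 575 in rat 85, while each of the other 4 PBBI rats exceeded every sham rat for 654 to 658 of them. In 14 of 19 gene groups the smallest median change was that of rat 83, and in 12 of 19 the largest was that of PBBI rat 81. The title of the ipsilateral library of rat 81 holds the letters PFC, where those of the other 10 hold CI. Whether the piece of cortex differed was not tested.

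**Figure D2:**
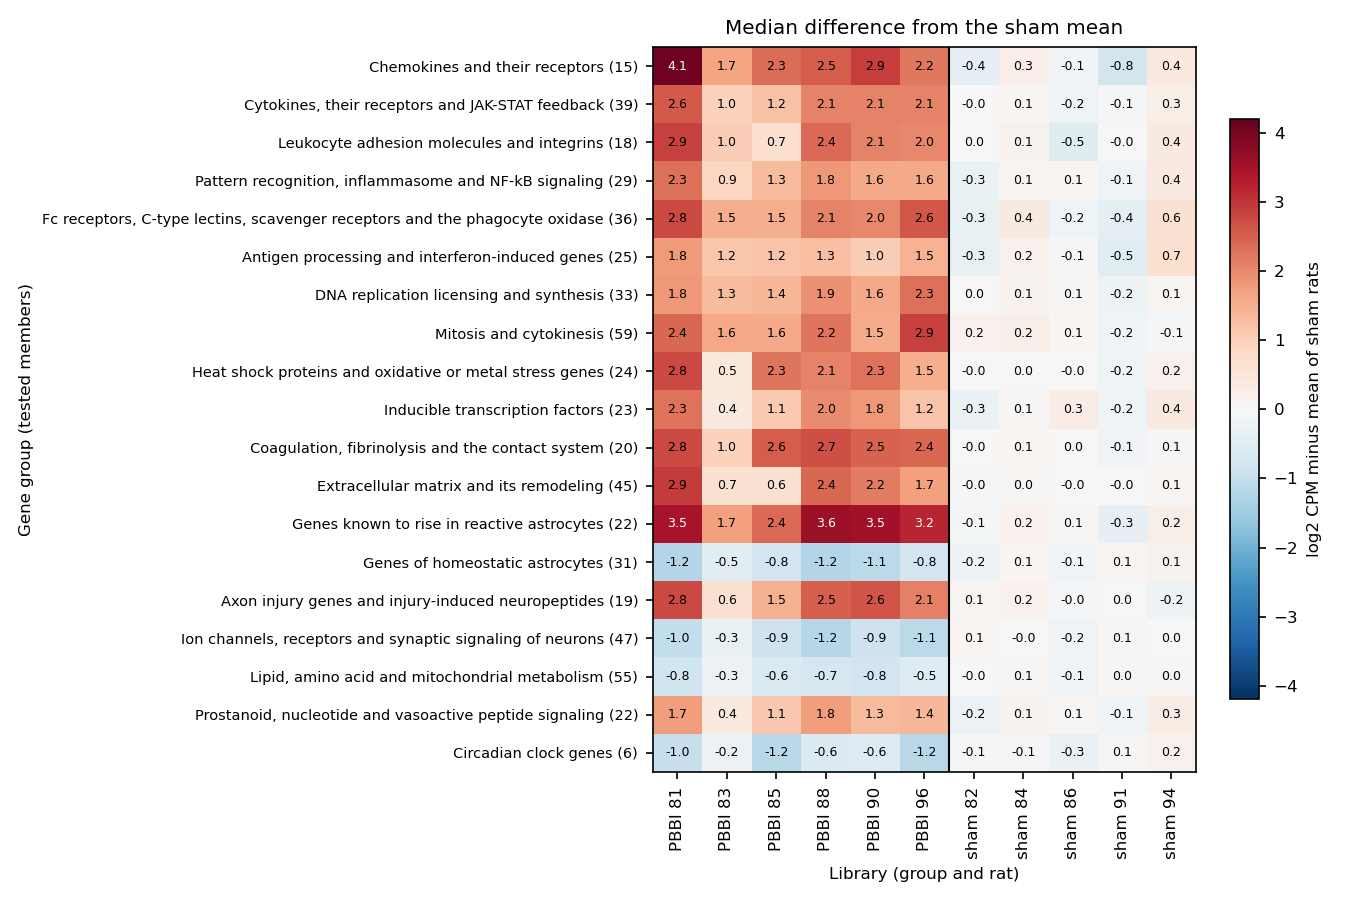
Median difference in log2 CPM from the mean of the 5 sham rats, over the tested members of each of 19 gene groups (rows) in each ipsilateral library (columns), from blue (below sham) to red (above sham). In 18 of the 19 groups every PBBI rat lay outside the range of the sham rats, and rat 83 showed the smallest change in 14. Most members were named because the study had called them on these libraries, so this separation was largely set by the naming. All 6 PBBI rats lay above all 5 sham rats for 31.9% of named genes and below them for 9.35%, against 3.52% and 1.19% of all genes tested.

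Genes whose mean log2 CPM was 1 or more and whose groups did not overlap were ranked, and 9 of the 10 highest log2 fold changes were those of Ccl7 (7.57), ENSRNOG00000010478 (7.26), Ccl2 (6.96), Hspb1 (6.77), Sprr1a (5.87), Ptx3 (5.53), Timp1 (5.37), Socs3 (5.32) and Sdc1 (5.27). They cover a wide range of functions, with attractants of monocytes (Ccl7 and Ccl2), a small heat shock protein (Hspb1), a marker of regrowing axons (Sprr1a), a secreted pattern recognition protein (Ptx3), an inhibitor of metalloproteinases (Timp1), a feedback inhibitor of JAK-STAT signaling (Socs3) and a heparan sulfate proteoglycan (Sdc1). Socs3 ran from 8.43 to 52.5 CPM in PBBI rats (median 25.7) and was 0.594, 0.633, 0.378, 0.496 and 1.21 CPM in sham rats. Socs3 was higher in all 6 PBBI rats than in any sham rat, and the change was a log2 fold change of 5.32 (SE 0.554, adjusted p = 0.00102). Ptx3 ran from 4.57 to 40.4 CPM in PBBI rats (median 26.3) and was 0.408, 0.768, 0.649, 0.256 and 0.432 CPM in sham rats. For Ptx3 the groups did not overlap, with a log2 fold change of 5.53 (SE 0.685, adjusted p = 0.00164). Sdc1 ran from 8.99 to 211 CPM in PBBI rats (median 87.2) and was 1.37, 3.11, 2.87, 1.15 and 2.79 CPM in sham rats. No PBBI rat had a value of Sdc1 within the sham range, with a log2 fold change of 5.27 (SE 0.834, adjusted p = 0.00551). The unnamed gene ENSRNOG00000010478 ran from 5.72 to 639 CPM in PBBI rats (median 52.5) and was 0, 0.0384, 0.324, 0.160 and 4.30 CPM in sham rats. It passed the test in 4 of the 11 fits that each leave out 1 rat, with a log2 fold change of 5.73 without PBBI rat 90 and 10.24 without sham rat 94. The other 8 genes of these 9 passed in all 11, at 7.74 for Ccl2 without sham rat 94 and 5.09 for Sprr1a without PBBI rat 81. Groups without overlap were a condition of this ranking, so that their separation is a description of these genes here and wherever they recur.

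The 10 smallest p-values belonged in part to other genes. Fgl2, which encodes a prothrombinase and is also secreted by T cells, ran from 30.7 to 67.5 CPM in PBBI rats (median 63.1) and was 8.54, 9.25, 9.25, 8.20 and 9.30 CPM in sham rats. The groups were far apart beside their spread, with a log2 fold change of 2.68 (SE 0.229, adjusted p = 5.84e-04). Vim, the intermediate filament vimentin, ran from 249 to 722 CPM in PBBI rats (median 583) and was 48.6, 87.3, 76.2, 52.4 and 91.6 CPM in sham rats, with a log2 fold change of 2.89 (SE 0.322, adjusted p = 0.00132). Vim lay above the highest sham rat in all 6 PBBI rats. LOC100910255, a locus with no established name, ran from 6.74 to 57.2 CPM in PBBI rats (median 34.5) and was 1.04, 1.11, 1.84, 1.28 and 0.930 CPM in sham rats, with a log2 fold change of 4.73 (SE 0.529, adjusted p = 0.00132). The others were Mcm3, Mcm5 and Mki67, described with the cell cycle genes, and Socs3, Timp1, Hspb1 and Ccl7. In all, 261 genes were called higher in the fit with all rats and in each of the 11 fits without 1 rat (1.62% of the genes tested), and 7 were called lower in all 12 (0.0435%).

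The chemokines and their receptors had the largest median log2 fold change of the 19 groups, ahead of the reactive astrocyte genes at 3.03. Rat by rat, the median difference from the sham mean was larger for the reactive astrocyte genes in every PBBI rat but rat 81. Of 15 members tested, 11 were called higher and none lower (11 higher without rat 85), with a median log2 fold change of 3.26. The share of all named genes called higher was 38.3% (57.8% without rat 85). Without PBBI rat 81 or any sham rat the count was 5 to 7, the fewest without sham rats 82 or 91. Beside the monocyte attractants Ccl7, Ccl2 and Ccl12 (3.89, adjusted p = 0.00378), the neutrophil attractants Cxcl1 and Cxcl3 rose. Cxcl1 ran from 2.59 to 31.6 CPM in PBBI rats (median 13.4) and was 0.0742, 0.403, 0.162, 0.128 and 0.980 CPM in sham rats. The sham range of Cxcl1 held no PBBI rat, with a log2 fold change of 5.26 (SE 0.873, adjusted p = 0.00598). Cxcl3 ran from 0.843 to 38.5 CPM in PBBI rats (median 4.65) and was 0.260, 0.0768, 0.0541, 0.0320 and 0.133 CPM in sham rats, with a log2 fold change of 6.41 (SE 1.15, adjusted p = 0.00856). Cxcl3 separated the groups. Single rats moved these values, as Cxcl1 was at 6.14 without sham rat 94 and Cxcl3 at 5.13 without PBBI rat 81, both called. Ccl20, an attractant of lymphocytes and dendritic cells, had a log2 fold change of 5.96 (6.56 without sham rat 86) but could be tested in 6 of the 11 fits without 1 rat and was called in 1 of these 6. The receptors Ccr1 (3.26, adjusted p = 0.0299) and Cxcr4 (1.86, adjusted p = 0.0315) were called, but in 5 and 3 of the 11, and Ccr1 was at 2.62 without PBBI rat 81. The stromal chemokine Cxcl12, the ligand of Cxcr4, and the neuronal chemokine Cx3cl1 had log2 fold changes of -1.16 and -0.78 and were not called, with adjusted p of 0.0912 and 0.140.

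**Figure D3:**
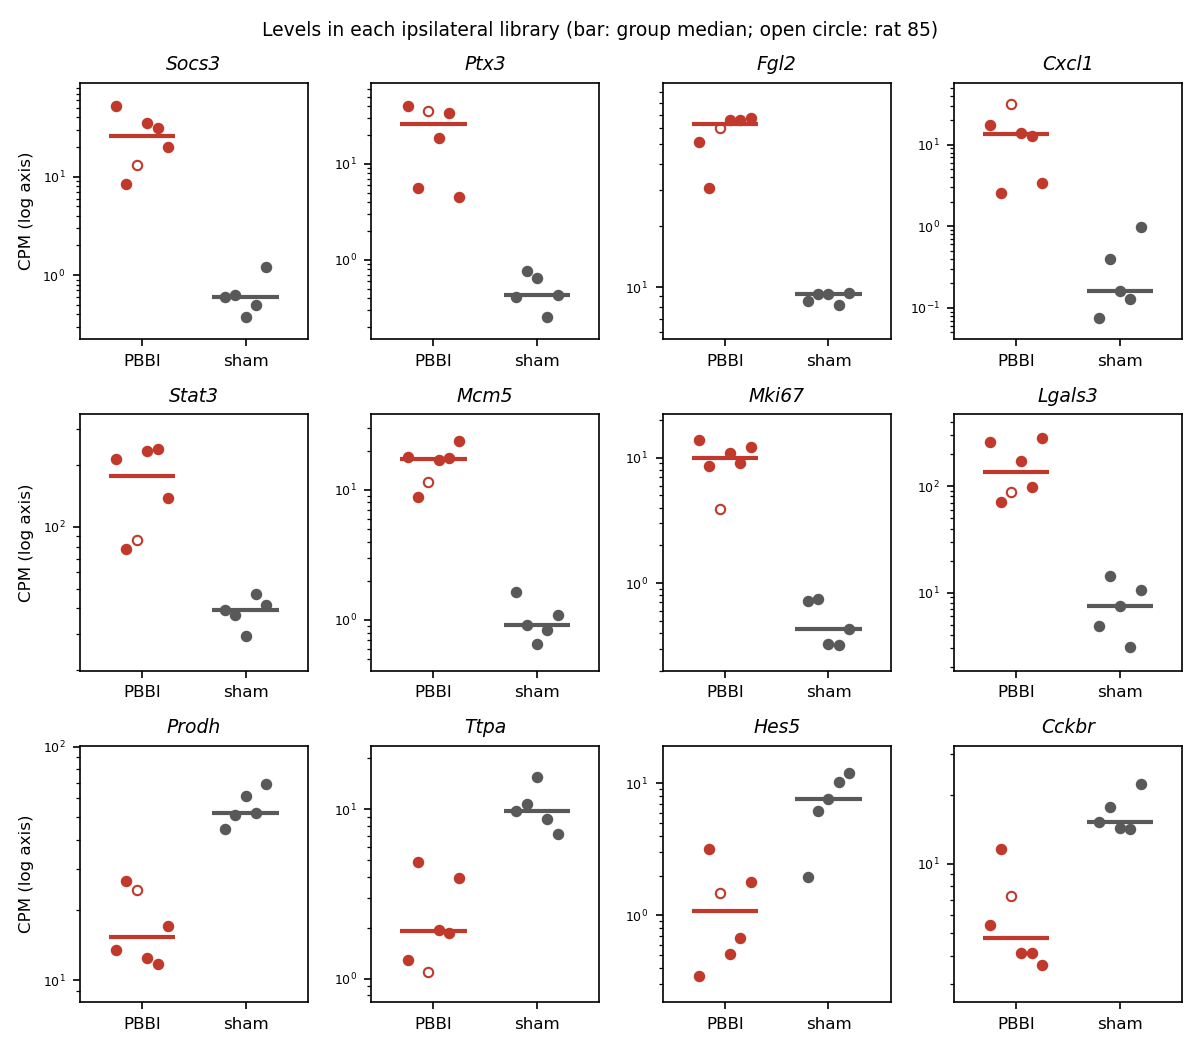
CPM (logarithmic axis) of 12 genes in each of the 6 PBBI rats (red) and 5 sham rats (grey), with the median of each group as a bar and rat 85 as an open circle. For 11 of them the groups did not overlap, while for Hes5 the value of rat 83 lay within the sham range.

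Cytokines, their receptors and JAK-STAT feedback genes rose in most members that could be tested. Of 39, 28 were called higher (33 without rat 85), where 38.3% of all named genes were (57.8% without rat 85). All 39 had a positive log2 fold change, and their median was 2.01. Of 63 listed, 41 had a symbol, mostly from the study's own calls on these libraries, so the shared sign describes the named members alone. The count was 15 to 18 without PBBI rats 81, 88 or 96 or any sham rat, the fewest without sham rats 82 or 86. The IL-6 family was represented by Il11, Lif, Osm and Clcf1, by the receptor subunit Osmr and by Stat3, the transcription factor that this family activates and that induces Socs3. Il11 ran from 1.21 to 38.5 CPM in PBBI rats (median 14.8) and was 0.111, 0.269, 0.324, 0.0959 and 0.233 CPM in sham rats. Il11 did not overlap between groups, with a log2 fold change of 6.31 (SE 0.889, adjusted p = 0.00286). Stat3 ran from 78.4 to 239 CPM in PBBI rats (median 177) and was 39.4, 37.2, 29.3, 46.9 and 41.7 CPM in sham rats. Stat3 was higher in all 6 PBBI rats than in any sham rat, with a log2 fold change of 2.09 (SE 0.332, adjusted p = 0.00551). Osmr rose by 3.68 on the log2 scale (adjusted p = 0.00792), Clcf1 by 3.58 (adjusted p = 0.00792) and Lif by 5.13 (adjusted p = 0.0191), the last in 6 of 11 fits without 1 rat. Il6 itself had a log2 fold change of 3.26 and was not called (adjusted p = 0.0506). Within the interleukin 1 system the ligand Il1b (3.40, adjusted p = 0.0217), the receptor antagonist Il1rn (3.34, adjusted p = 0.0399) and the decoy receptor Il1r2 (4.59, adjusted p = 0.00769) were all called higher, Il1b in 7, Il1rn in 2 and Il1r2 in all of the 11 fits without 1 rat. Without PBBI rat 81 their log2 fold changes were 2.61, 2.34 and 3.78. Il1b ran from 1.41 to 28.1 CPM in PBBI rats (median 5.10) and was 0.817, 0.614, 0.865, 0.320 and 1.64 CPM in sham rats. PBBI rat 83 lay within the sham range and the other 5 above it. Of the tumor necrosis factor receptors, Tnfrsf1a (2.06, adjusted p = 0.00283) and Tnfrsf12a (3.39, adjusted p = 0.00480), the receptor of TWEAK, were called in all 11 fits without 1 rat.

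Leukocyte adhesion genes were called higher in 13 of 18 tested members (17 without rat 85), against 38.3% of all named genes (57.8% without rat 85). The median log2 fold change of the group was 2.09. Leaving out PBBI rats 81, 88, 90 or 96 or sham rats 82, 84, 86 or 91 gave a count of 5 to 7, the fewest without sham rats 82, 84, 86 or 91. Cd44, a receptor of hyaluronan, ran from 40.9 to 212 CPM in PBBI rats (median 145) and was 11.1, 11.9, 7.11, 10.8 and 13.3 CPM in sham rats, with a log2 fold change of 3.59 (SE 0.481, adjusted p = 0.00243). No PBBI rat had a value of Cd44 within the sham range. The leukocyte integrins Itgam (2.58), Itgax (4.97) and their shared beta chain Itgb2 (2.30) were called in all 11 fits without 1 rat. Icam1, their endothelial ligand, rose by 1.87 and was called in 2 of the 11.

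Genes of pattern recognition, the inflammasome and NF-kB signaling were called higher in 17 of 29 members (24 without rat 85), with a median of 1.71. For all named genes the share was 38.3% (57.8% without rat 85). In the fits without PBBI rats 81, 88 or 96 or any sham rat the count was 6 to 11, the fewest without sham rat 91. Cd14, the co-receptor for bacterial lipopolysaccharide, ran from 5.99 to 104 CPM in PBBI rats (median 28.1) and was 0.854, 1.23, 1.14, 0.799 and 1.26 CPM in sham rats, with a log2 fold change of 5.17 (SE 0.708, adjusted p = 0.00274). Cd14 lay above the highest sham rat in all 6 PBBI rats. Without PBBI rat 81 its log2 fold change was 4.56. Bcl3 (3.75), a nuclear partner of NF-kB, Trem1 (5.20), an amplifying receptor of neutrophils and monocytes, and Ripk3 (2.46), a kinase of necroptosis, were called in all 11 fits without 1 rat, with Trem1 at 4.48 without PBBI rat 81 and 6.11 without sham rat 94. The NF-kB subunits Rela (0.84) and Relb (1.05) and the inhibitor Nfkbia (0.91) were not called. Phagocyte genes followed in 28 of 36 members (31 without rat 85), beside the same shares of named genes, with a median of 2.26. The phagocyte count fell to 10 to 18 without PBBI rats 81, 88 or 96 or sham rats 82, 84, 86 or 91, the fewest without sham rats 82 or 91. They included the scavenger receptor Msr1 (5.02, adjusted p = 0.00132), the Fc receptors Fcgr1a (2.12) and Fcgr2b (2.75), and Ncf4 (3.40), a cytosolic part of the NADPH oxidase. Msr1 ran from 4.84 to 51.8 CPM in PBBI rats (median 30.1) and was 1.19, 1.04, 0.919, 0.911 and 0.581 CPM in sham rats. The sham range of Msr1 held no PBBI rat. Tyrobp, the adaptor that serves many of these receptors, had a log2 fold change of 1.62 and was not called (adjusted p = 0.158).

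Antigen processing and interferon-induced genes were called higher in 11 of 25 members (14 without rat 85), a share close to that of all named genes, with a median of 1.28. Without PBBI rats 81 or 96 or sham rats 82, 84, 86 or 91 the count was 4 to 7, the fewest without sham rat 86. Ifitm3, which blocks entry of viruses, ran from 20.5 to 52.8 CPM in PBBI rats (median 35.7) and was 8.96, 6.97, 4.60, 5.24 and 13.3 CPM in sham rats, with a log2 fold change of 2.28 (SE 0.344, adjusted p = 0.00417). Ifitm3 separated the groups. The peptide transporter Tap1 (1.29, adjusted p = 0.0167) and the immunoproteasome subunit Psmb8 (1.38, adjusted p = 0.0261) were called, in 9 and 3 of the 11 fits without 1 rat. The class II genes RT1-Da (1.16) and RT1-Db1 (1.12) and the RT1-CE class I genes were not, and these families hold near-identical copies whose reads may have been split in the counting.

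Markers of leukocytes and microglia were measured beside these groups. Summed levels of markers cover every marker with a symbol, tested or not. Of the neutrophil markers 7 of 12 could be tested and 2 were called higher. The 10 with a symbol summed to between 12.5 and 215 CPM in PBBI rats and between 5.62 and 53.0 CPM in sham rats, so that the groups overlapped. The 2 of 7 called are a smaller share than the 38.3% of all named genes. The 8 markers of monocytes or macrophages with a symbol (of 10) summed to between 249 and 1171 CPM in PBBI and between 106 and 252 CPM in sham, with overlap in this range. Of these markers 7 were tested and 4 were called higher. The 4 microglial markers with a symbol (of 9) summed to 165 to 381 CPM against 84.6 to 183 CPM, which also overlap, and 2 of the 3 tested were called higher. For T or NK cells 5 of 11 markers were tested, 2 were called higher and the 8 with a symbol summed to 4.53 to 13.5 CPM against 0.650 to 2.81 CPM. Of 6 B cell markers 3 had a symbol and summed to 9.08 to 14.2 CPM against 3.87 to 8.23 CPM. Only Blnk of these was tested, and it was not called. The sums for T or NK cells and for B cells did not overlap between groups. The neutrophil elastase gene Elane had 0 counts in every sham rat and 0 to 31 counts in the PBBI rats, the monocyte receptor gene Ccr2 had 0 to 2 against 0 to 28, and Cd3d of T cells had 0 to 6 against 4 to 50. All were too few to be tested, but they are part of the sums above. The part of these cells in the values of the immune groups was not tested.

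Genes of the cell cycle rose in most of the members tested. Of 33 tested genes of DNA replication 22 were called higher (30 without rat 85), and of 59 genes of mitosis and cytokinesis 48 were (56 without rat 85). Their median log2 fold changes were 1.78 and 2.11, and no member of either was called lower. Of all named genes 38.3% were called higher (57.8% without rat 85). The replication count was 15 to 30 in the 11 fits without 1 rat. The mitosis count was 31 without sham rat 91. In the replication group all 6 PBBI rats exceeded all 5 sham rats for 18 of the 33 genes, and in the mitosis group for 45 of 59, where 31.9% of all named genes and 3.52% of all genes tested did so.

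As background to the promoters of these groups, E2F factors bind near the start of genes needed for S phase, and the cell cycle homology region (CHR) lies near the start of many genes of G2 and mitosis. Windows of 250 bases before to 50 after the start, from RefSeq on GRCr8, were searched on both strands for the E2F letters TTCCCGC (also with other middle letters, as TTGGCGC in one form, TTCGCGC in another form and TTGCCGC in the last form) and for the CHR letters, which are TTTGAA. Below are the 2 called members of each group with the smallest p whose window holds the letters, 5′ to 3′ on the gene's strand, with the matches for which each window was chosen, E2F for Mcm5 and Mcm3 and CHR for Mki67 and Top2a, in capitals on either strand, and touching matches run together. They are shown because they let the letters be seen beside the genes that changed.
Mcm5 (chr19:13488563-13488862, plus strand): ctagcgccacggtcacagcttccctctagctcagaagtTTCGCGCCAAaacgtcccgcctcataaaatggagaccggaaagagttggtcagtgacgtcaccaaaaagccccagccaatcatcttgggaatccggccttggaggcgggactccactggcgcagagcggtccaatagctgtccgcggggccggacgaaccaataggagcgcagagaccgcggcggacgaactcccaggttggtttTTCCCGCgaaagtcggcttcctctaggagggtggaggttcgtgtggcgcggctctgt
Mcm3 (chr9:30733697-30733996, minus strand): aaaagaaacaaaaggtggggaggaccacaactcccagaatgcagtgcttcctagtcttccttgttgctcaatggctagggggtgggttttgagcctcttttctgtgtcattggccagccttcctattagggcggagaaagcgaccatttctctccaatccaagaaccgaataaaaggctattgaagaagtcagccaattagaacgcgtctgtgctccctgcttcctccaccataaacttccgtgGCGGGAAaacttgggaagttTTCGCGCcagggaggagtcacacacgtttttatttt
Mki67 (chr1:199952544-199952843, minus strand): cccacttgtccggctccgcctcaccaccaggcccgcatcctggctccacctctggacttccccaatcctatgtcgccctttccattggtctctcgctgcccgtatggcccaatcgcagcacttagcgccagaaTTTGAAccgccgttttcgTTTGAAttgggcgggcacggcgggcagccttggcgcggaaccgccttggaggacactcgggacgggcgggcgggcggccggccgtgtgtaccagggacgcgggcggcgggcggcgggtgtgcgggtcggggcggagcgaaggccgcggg
Top2a (chr10:84473044-84473343, minus strand): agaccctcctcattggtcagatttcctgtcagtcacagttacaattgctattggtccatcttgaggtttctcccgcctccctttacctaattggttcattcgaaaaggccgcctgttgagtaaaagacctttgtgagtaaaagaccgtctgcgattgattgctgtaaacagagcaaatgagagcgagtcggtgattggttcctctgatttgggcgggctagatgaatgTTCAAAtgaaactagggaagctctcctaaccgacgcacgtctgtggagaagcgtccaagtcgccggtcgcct
The windows of Mcm5 and Mcm3 hold 3 and 2 E2F matches, and those of Mki67 and Top2a hold 2 and 1 CHR matches. The Mki67 window also holds the E2F letters, left in lower case, and the other 3 windows hold only the letters marked in them. Of the 22 called replication genes 17 had a window, and 13 of these (76.5%) held the E2F letters, against 9.52% of all 33469 windows and 15.7% of the windows of all genes called higher. Of 10 windows of tested replication genes that were not called, 60.0% held them too. Of 39 windows of called mitosis genes 28 (71.8%) held the CHR letters, against 18.3% of all windows and 20.3% for all genes called higher, and 55.6% for the 9 windows of mitosis genes that were not called. The shares are not adjusted for base composition, and a match is a description of the window and not a site shown to be bound.

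Mcm5 and Mcm3, subunits of the helicase that licenses replication origins, were among the 10 smallest p-values. Mcm5 ran from 8.80 to 23.7 CPM in PBBI rats (median 17.2) and was 1.63, 0.921, 0.649, 0.831 and 1.10 CPM in sham rats. Mcm5 did not overlap between groups, with a log2 fold change of 3.96 (SE 0.356, adjusted p = 5.84e-04). Mcm3 ran from 5.00 to 16.9 CPM in PBBI rats (median 13.8) and was 1.47, 1.27, 0.919, 1.20 and 1.50 CPM in sham rats, with a log2 fold change of 3.23 (SE 0.361, adjusted p = 0.00132). Mcm3 was higher in all 6 PBBI rats than in any sham rat. Other licensing factors followed, with Mcm10 at 3.42, Cdt1 at 2.74, Orc1 at 2.89 and Cdc6 at 2.29 on the log2 scale, all called in every fit without 1 rat. Pcna, the sliding clamp of DNA polymerases, had a log2 fold change of 0.88 and was not called (adjusted p = 0.0751). Mki67, whose protein coats mitotic chromosomes and is used to count dividing cells, ran from 3.90 to 13.8 CPM in PBBI rats (median 9.97) and was 0.724, 0.748, 0.324, 0.320 and 0.432 CPM in sham rats. For Mki67 the groups did not overlap, with a log2 fold change of 4.25 (SE 0.417, adjusted p = 9.40e-04). Top2a, a topoisomerase, ran from 10.9 to 29.8 CPM in PBBI rats (median 16.4) and was 2.49, 1.80, 0.784, 0.927 and 1.73 CPM in sham rats, with a log2 fold change of 3.51 (SE 0.406, adjusted p = 0.00133). No PBBI rat had a value of Top2a within the sham range. The kinases Cdk1 (3.39), Aurkb (2.63) and Bub1b (3.07) and the cyclin Ccna2 (3.12) were called in all 11 fits without 1 rat, while Ccnb1 (1.19) and Birc5 (1.48) were not called in the fit with all rats. Which cells divided cannot be read from whole tissue.

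**Figure D4:**
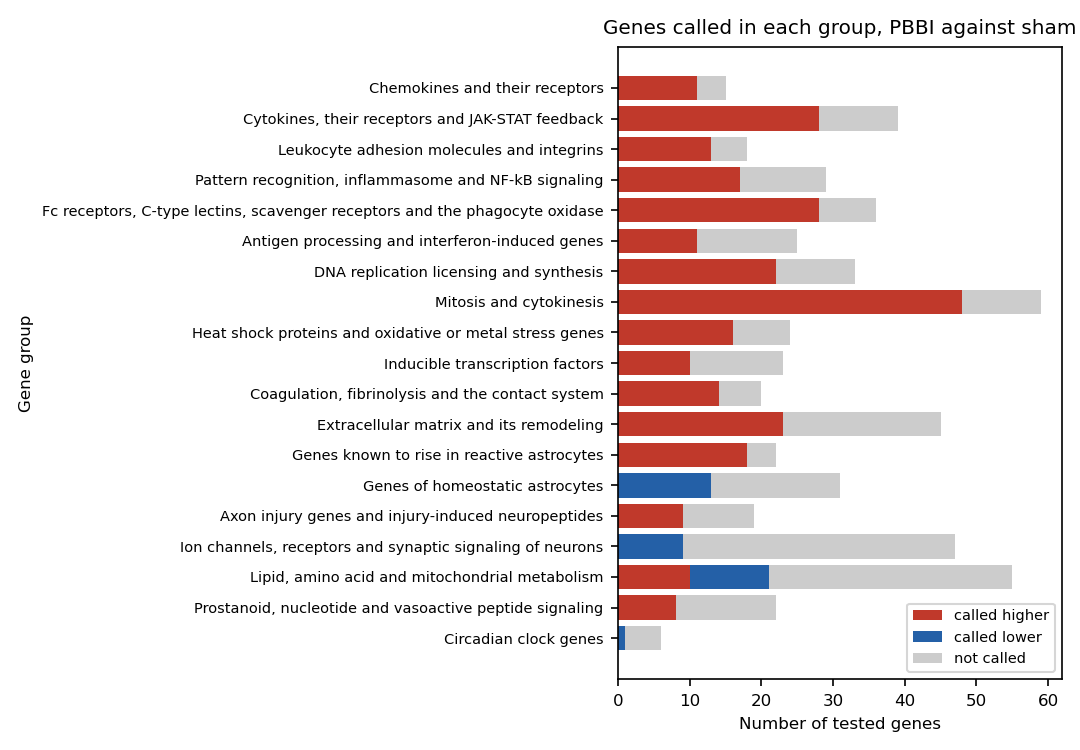
Number of tested genes (horizontal axis) in each of 19 gene groups that were called higher (red), called lower (blue) or not called (grey) in PBBI. The mitosis group holds 48 of 59 called higher, the replication group 22 of 33, and the homeostatic astrocyte group 13 of 31 called lower. Of all named genes 38.3% were called higher and 5.6% lower.

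Stress genes were called higher in 16 of 24 members (20 without rat 85), where 38.3% of all named genes were (57.8% without rat 85). The median of the stress group was 2.15. Leaving out PBBI rat 81 or any sham rat gave a count of 7 to 10, the fewest without sham rats 82, 84 or 91. Hspb1 rose by 6.77 on the log2 scale (adjusted p = 9.40e-04). Hmox1, which breaks down heme, ran from 40.8 to 495 CPM in PBBI rats (median 130.3) and was 5.20, 8.08, 3.46, 4.78 and 5.63 CPM in sham rats, with a log2 fold change of 5.07 (SE 0.628, adjusted p = 0.00164). Hmox1 lay above the highest sham rat in all 6 PBBI rats. The inducible chaperone gene Hspa1b ran from 1.06 to 81.4 CPM in PBBI rats (median 7.13) and was 1.04, 0.921, 1.19, 0.672 and 0.797 CPM in sham rats, with a log2 fold change of 4.47 (SE 0.988, adjusted p = 0.0244). PBBI rat 83 lay within the sham range and the other 5 above it. Hspa1b was called in 6 of the 11 fits without 1 rat, and without PBBI rat 81 the log2 fold change was 3.16 for Hspa1b and 4.47 for Hmox1. Metallothioneins, which bind zinc and copper, rose together, with Mt2A at 2.22, Mt1m at 2.06 (called in 6 of the 11) and the 2 identifiers named Mt1 at 3.25 and 2.70 on the log2 scale, although these genes are alike in sequence and their reads may have been shared. The mitochondrial chaperonin gene Hspd1 (0.62) and Txnrd1 (0.95), a target of the oxidative stress factor Nrf2, were not called.

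Inducible transcription factors were called higher in 10 of 23 members (18 without rat 85), with a median of 1.75. The 10 are also near the share of all named genes, while the 18 are a larger share than the 57.8% of named genes without rat 85. In the fits without PBBI rats 81, 88, 90 or 96 or any sham rat the count was 3 to 6, the fewest without sham rat 91. Myc, a driver of growth and division, ran from 5.19 to 30.0 CPM in PBBI rats (median 22.4) and was 1.47, 2.94, 3.65, 2.46 and 3.57 CPM in sham rats, with a log2 fold change of 2.84 (SE 0.455, adjusted p = 0.00558). Myc separated the groups. Fosl1, a Fos-related partner of Jun in AP-1, rose by 5.11 (adjusted p = 0.00575), and Spi1, the lineage factor of myeloid cells, by 1.68 (adjusted p = 0.0167, called in 10 of the 11 fits without 1 rat). Jun (1.19), Fosb (2.26) and Atf3 (2.64) had positive log2 fold changes and were not called, with adjusted p of 0.0816, 0.172 and 0.119. Atf3 ran from 5.30 to 93.9 CPM in PBBI rats (median 27.1) and was 0.742, 5.37, 10.9, 0.799 and 11.6 CPM in sham rats. PBBI rat 83 lay within the sham range and the other 5 above it.

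Genes of coagulation, fibrinolysis and the contact system were called higher in 14 of 20 members (16 without rat 85), with a median of 2.40. For all named genes the share was 38.3% (57.8% without rat 85). The count fell to 9 without PBBI rat 88 or sham rats 84, 86 or 91. Plaur, the receptor of urokinase, ran from 1.94 to 20.1 CPM in PBBI rats (median 7.27) and was 1.43, 0.710, 1.03, 0.592 and 1.28 CPM in sham rats. Plaur was higher in all 6 PBBI rats than in any sham rat, with a log2 fold change of 3.15 (SE 0.526, adjusted p = 0.00609). The protease itself, Plau, rose by 3.67 (adjusted p = 0.0271), called in 3 of 11 fits without 1 rat. Kng1l1, a kininogen, ran from 0.740 to 10.7 CPM in PBBI rats (median 3.62) and was 0.0371, 0.0768, 0.108, 0 and 0.0332 CPM in sham rats, with a log2 fold change of 6.50 (SE 0.900, adjusted p = 0.00283). For Kng1l1 the groups did not overlap. F7, the clotting factor that binds tissue factor, had 0 counts in every sham rat and 282, 0, 12, 395, 143 and 57 counts in PBBI rats 81, 83, 85, 88, 90 and 96. No fold is given for it, and it could be tested in 6 of the 11 fits without 1 rat and was called in 1 of these 6. Vwf, carried by endothelium and platelets, rose by 1.24 (adjusted p = 0.0112), and 4 of 5 tested endothelial markers were called higher, with a summed level of 66.7 to 141 CPM in PBBI against 45.6 to 63.4 CPM in sham.

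Matrix genes were called higher in 23 of 45 members and lower in none, and in 33 and 3 without rat 85. Of all named genes 38.3% were called higher and 5.6% lower, and 57.8% and 14.7% without rat 85. The median of the matrix group was 2.23. Without sham rats 82 or 91 the higher count was 14. Timp1 ran from 44.8 to 413 CPM in PBBI rats (median 225) and was 3.53, 6.43, 3.97, 3.65 and 9.75 CPM in sham rats. No PBBI rat had a value of Timp1 within the sham range, with a log2 fold change of 5.37 (SE 0.595, adjusted p = 0.00132). Lgals3, a lectin abundant in activated microglia and macrophages, ran from 71.6 to 282 CPM in PBBI rats (median 136) and was 4.81, 14.4, 7.49, 3.07 and 10.5 CPM in sham rats, with a log2 fold change of 4.34 (SE 0.536, adjusted p = 0.00164). Lgals3 lay above the highest sham rat in all 6 PBBI rats. The hyaluronan synthases Has1 (6.86, adjusted p = 0.00661) and Has2 (2.60, adjusted p = 0.00850) rose, with Has1 at 5.99 without PBBI rat 81, while Has3 had a log2 fold change of -1.06 and was not called. Fn1 (2.56), Tnc (2.43), Lox (2.60) and Spp1 (4.97) were called in all 11 fits without 1 rat. The chondroitin sulfate proteoglycans Ncan (2.52) and Vcan (1.59) and the link protein Hapln1 (-1.59) were not called. Of 10 markers of meninges or fibroblasts 6 were tested and 1 was called lower, and they summed to 103 to 655 CPM in PBBI rats and 444 to 981 CPM in sham rats, with the highest PBBI value in rat 85. Of 10 muscle markers 6 were tested and 2 were called higher, and they summed to 80.4 to 382 CPM against 17.4 to 64.3 CPM. The 2 of 6 called are a smaller share than the 38.3% of all named genes. How much adjoining tissue of these kinds was in each sample was not tested.

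Astrocyte genes were listed by state. The lists were chosen with earlier results of these data known, and most symbols came from the study's own calls. The opposite directions below are therefore a description of the named members. Of 22 genes known to rise in reactive astrocytes 18 were called higher and none lower (21 higher without rat 85), with a median of 3.03, while of 31 genes of homeostatic astrocytes 13 were called lower and none higher (24 lower without rat 85), with a median of -1.04. The reactive count was 14 to 21 in the 11 fits without 1 rat. The homeostatic count was 2 to 5 without PBBI rats 81, 88, 90 or 96 or sham rats 84, 86, 91 or 94, the fewest without PBBI rat 88 or sham rat 91, and 24 without PBBI rat 83. Among named genes 38.3% were called higher and 5.6% lower (57.8% and 14.7% without rat 85). Of 9 general markers of astrocytes 4 were tested, of which 1 was called higher (Gfap) and 2 lower (Aldh1l1 and Aldoc). Their sum was 2393 to 7349 CPM in PBBI against 1185 to 2171 CPM in sham. The rise of this sum is that of Gfap, since Aldh1l1, Aldoc and Gjb6 had negative log2 fold changes. Gfap, the astrocytic intermediate filament, ran from 1842 to 6881 CPM in PBBI rats (median 4709.9) and was 383, 573, 345, 702 and 899 CPM in sham rats, with a log2 fold change of 2.99 (SE 0.449, adjusted p = 0.00407). The sham range of Gfap held no PBBI rat. Other members of the reactive group were Aspg (4.01), S1pr3 (3.44), Emp1 (2.60), S100a10 (2.98) and Lcn2 (3.79). Of these, S100a10 was at 2.37 without PBBI rat 85, and Lcn2 was called in 8 of the 11 fits without 1 rat, at 4.90 without sham rat 94. Prodh, which starts the breakdown of proline, ran from 11.7 to 26.7 CPM in PBBI rats (median 15.3) and was 44.6, 51.1, 61.6, 52.2 and 69.0 CPM in sham rats, with a log2 fold change of -1.66 (SE 0.256, adjusted p = 0.00480). Prodh separated the groups. Ttpa, the transfer protein of vitamin E, ran from 1.10 to 4.90 CPM in PBBI rats (median 1.90) and was 9.84, 10.7, 15.5, 8.81 and 7.11 CPM in sham rats, with a log2 fold change of -2.05 (SE 0.412, adjusted p = 0.0158). Ttpa did not overlap between groups. Hes5, a target of Notch signaling, ran from 0.347 to 3.19 CPM in PBBI rats (median 1.07) and was 1.95, 6.14, 7.60, 10.2 and 12.1 CPM in sham rats, with a log2 fold change of -2.51 (SE 0.601, adjusted p = 0.0337). PBBI rat 83 lay within the sham range and the other 5 below it. Hes5 was called in 3 of the 11 fits without 1 rat. Aldh1l1 (-0.96) and Aldoc (-0.91) were called but kept the call in 2 and 3 of 11 fits without 1 rat. The gap junction gene Gjb6 (-1.53) and Sparcl1 (-0.60) were not called.

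Neuronal genes were called lower in a smaller share of members than those of homeostatic astrocytes, and the difference in shares was not tested. Of 47 ion channel, receptor and synaptic genes 9 were called lower and none higher, with a median of -0.89, where 5.6% of named genes were called lower. In the fit without rat 85, 31 were called lower, against 14.7% of named genes. Leaving out PBBI rats 81, 88, 90 or 96 or any sham rat gave a count of 1 to 3, the fewest without PBBI rats 81, 88 or 96 or sham rats 84, 91 or 94, and 26 without PBBI rat 83. All 47 had a negative log2 fold change. Of 77 listed, 48 had a symbol, mostly from the study's own calls on these libraries, so the shared sign describes the named members alone. Cckbr, a receptor of cholecystokinin, ran from 3.65 to 11.6 CPM in PBBI rats (median 4.78) and was 15.2, 17.7, 14.3, 14.2 and 22.3 CPM in sham rats, with a log2 fold change of -1.47 (SE 0.320, adjusted p = 0.0217). For Cckbr the groups did not overlap. Camk2n1, an inhibitor of the kinase CaMKII, ran from 154 to 380.3 CPM in PBBI rats (median 304) and was 393, 703, 953, 636 and 639 CPM in sham rats, with a log2 fold change of -1.28 (SE 0.306, adjusted p = 0.0337). No PBBI rat had a value of Camk2n1 within the sham range. Of the 47, all 6 PBBI rats lay below all 5 sham rats for 17, where 9.35% of all named genes and 1.19% of all genes tested did so. None of the 9 called genes kept the call in more than 5 of the 11 fits without 1 rat. Neuronal markers had counts in every library, striatal ones included, so they do not test the label of cortex. None of the neuronal markers was called. The 2 inhibitory markers with a symbol (of 8) summed to 166 to 352 CPM in PBBI and 327 to 568 CPM in sham. The excitatory marker Camkv, the only one of 6 that could be named, was between 184 and 372 CPM in PBBI and between 369 and 686 CPM in sham. Of 9 striatal markers 6 were tested and summed to 34.3 to 124 against 63.2 to 242 CPM. Of 10 oligodendrocyte markers 4 were tested, Enpp2, Folh1, Mal and Opalin, and 1 was called lower. With Neu4, which had too few counts to be tested, they summed to 185 to 535 against 485 to 970 CPM. The 1 tested choroid plexus marker, Kl, was near 0 in both groups, at 0.126 to 0.465 against 0.115 to 0.399 CPM. The part of the amount of each tissue in these values was not tested.

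Genes of axon injury and injury-induced neuropeptides were called higher in 9 of 19 members (13 without rat 85), where 38.3% of all named genes were, with a median of 1.84. The count was 6 to 13 in the 11 fits without 1 rat. Sprr1a ran from 2.96 to 101 CPM in PBBI rats (median 10.7) and was 0.779, 0.652, 0.595, 0.384 and 0.382 CPM in sham rats. Sprr1a lay above the highest sham rat in all 6 PBBI rats, with a log2 fold change of 5.87 (SE 1.03, adjusted p = 0.00792) and 5.09 on the log2 scale without PBBI rat 81. The neuropeptide genes Gal (3.26, adjusted p = 0.00558), Trh (5.16, adjusted p = 0.00689), Calca (3.39, adjusted p = 0.00856) and Calcb (3.77, adjusted p = 0.00665) were called in all 11 fits without 1 rat. Trh ran from 37.9 to 329 CPM in PBBI rats (median 169.9) and was 4.55, 0.576, 11.2, 5.39 and 0.631 CPM in sham rats. The sham range of Trh held no PBBI rat, and its log2 fold change was 5.89 without sham rat 86. Ucn2, a ligand of the corticotropin-releasing hormone receptors, had 0 to 2 counts in the sham rats and 280, 28, 26, 126, 37 and 97 counts in PBBI rats 81, 83, 85, 88, 90 and 96. Csrp3, a muscle protein also known from cut nerves, had 0 to 2 counts in sham and 74, 10, 87, 148, 60 and 108 counts in PBBI. Muscle markers are given above. Sox11 (1.84) and Inhba (3.83), also known from injured neurons, were not called.

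Metabolic genes went in both directions, with 10 of 55 called higher and 11 lower, and 12 and 28 without rat 85. Among all named genes 38.3% were called higher and 5.6% lower. Of the 55, 17 had a positive and 38 a negative log2 fold change. The median was -0.78. In the fits without PBBI rats 81, 88, 90 or 96 or any sham rat the lower count was 3 to 5, the fewest without PBBI rats 81 or 88 or sham rats 84, 86, 91 or 94, and 21 without PBBI rat 83. Those called higher included the activator of glycolysis Pfkfb3 at 1.73, the hexokinase Hk3 of myeloid cells at 4.76 (5.38 without sham rat 94) and the lactate exporter Slc16a3 at 3.32, while the glycolytic aldolase Aldoc was called lower (-0.91). The lipid droplet protein Plin2 (2.51) and the mitochondrial folate enzymes Mthfd2 (1.33) and Mthfd1l (0.94) were also called higher. Plin2 ran from 15.3 to 97.8 CPM in PBBI rats (median 56.8) and was 8.93, 12.1, 6.89, 9.75 and 8.97 CPM in sham rats, with a log2 fold change of 2.51 (SE 0.468, adjusted p = 0.0111). Plin2 separated the groups. On the lower side Sds, a serine dehydratase, ran from 0 to 0.183 CPM in PBBI rats (median 0.0578) and was 0.594, 1.50, 1.49, 0.815 and 0.914 CPM in sham rats, with a log2 fold change of -3.86 (SE 0.622, adjusted p = 0.00558). Sds did not overlap between groups. Adhfe1 (-1.39, adjusted p = 0.00575), a hydroxyacid-oxoacid transhydrogenase, and the glutathione transferase Gstm7 (-1.13, adjusted p = 0.00792) fell by less, and all 3 were called lower in each of the 11 fits without 1 rat.

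Prostanoid and vasoactive genes were called higher in 8 of 22 members (15 without rat 85), with a median of 1.30. The 8 are close to the share of all named genes, while the 15 are a larger share than the 57.8% of named genes without rat 85. The count fell to 3 to 5 without PBBI rats 81 or 88 or any sham rat, the fewest without sham rats 82, 84 or 91, and 13 without PBBI rat 83. Adm, the vasodilator adrenomedullin, ran from 2.31 to 12.6 CPM in PBBI rats (median 5.49) and was 0.965, 1.09, 1.14, 0.783 and 1.31 CPM in sham rats, with a log2 fold change of 2.66 (SE 0.465, adjusted p = 0.00769). Adm was higher in all 6 PBBI rats than in any sham rat. The inducible cyclooxygenase Ptgs2 rose by 2.26 (adjusted p = 0.0257) and was called in 3 of 11 fits without 1 rat, and the prostaglandin E synthase Ptges (2.91) was not called (adjusted p = 0.0603). Of 6 clock genes tested, 1 was called lower, Vipr2 (-1.32, adjusted p = 0.0305), the receptor through which VIP acts in the circadian clock, and it kept the call in 2 of the 11. This count changed with the fit, as 2 were called higher and 3 lower without rat 85, 4 lower without rat 83 and none without any 1 of the other 9 rats. All 6 had an unadjusted p under 0.05 in edgeR in each of these fits. Only 6 of 27 listed clock genes had a symbol, however, and symbols came mostly from the study's own calls on these libraries. Low p-values in these 6 were therefore largely set by the naming, and the unnamed clock genes could not be read. DESeq2 and voom each called 2 higher and 4 lower, and the fit of all 22 samples 1 and 4. Arntl had a log2 fold change of -0.69 and was not called (adjusted p = 0.0534), but passed under DESeq2, voom and the fit of all 22 samples and without rats 83 or 85.

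Fewer genes fell, and they fell by less. Ranked in the same way, the 10 lowest log2 fold changes were those of Ttpa (-2.05), Siglec5 (-1.84), Sptssb (-1.75), Ltk (-1.70), Aifm3 (-1.68), Prodh (-1.66), AABR07066677.1 (-1.65), Sowaha (-1.56), Sult1d1 (-1.56) and Neu2 (-1.55). Ltk, a receptor tyrosine kinase, ran from 6.51 to 11.9 CPM in PBBI rats (median 7.09) and was 14.5, 21.8, 27.0, 23.4 and 41.1 CPM in sham rats, with a log2 fold change of -1.70 (SE 0.277, adjusted p = 0.00567). For Ltk the groups did not overlap. Siglec5, a sialic acid receptor, ran from 0.903 to 3.51 CPM in PBBI rats (median 1.86) and was 5.75, 10.9, 8.08, 7.16 and 5.65 CPM in sham rats, with a log2 fold change of -1.84 (SE 0.382, adjusted p = 0.0177). No PBBI rat had a value of Siglec5 within the sham range. The call held in all 11 fits without 1 rat for Ttpa, Ltk and Prodh, and in 10 for Siglec5, 3 for Sptssb, 10 for Aifm3, 4 for AABR07066677.1, 7 for Sowaha, 3 for Sult1d1 and 2 for Neu2. Here too the ranking asked for groups without overlap. All 94 genes called lower had a symbol.

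Among the 659 genes called higher 15 had no symbol, and the 3 with the highest log2 fold changes at a mean log2 CPM of at least 1 were ENSRNOG00000010478, ENSRNOG00000046699 and ENSRNOG00000050869. ENSRNOG00000046699 ran from 3.52 to 95.4 CPM in PBBI rats (median 8.74) and was 0.612, 0.461, 0.487, 0.160 and 3.01 CPM in sham rats, with a log2 fold change of 4.56 (SE 1.11, adjusted p = 0.0355). ENSRNOG00000050869 ran from 24.8 to 244 CPM in PBBI rats (median 41.7) and was 2.78, 8.56, 15.9, 4.09 and 18.3 CPM in sham rats, with a log2 fold change of 2.88 (SE 0.711, adjusted p = 0.0378). ENSRNOG00000050869 lay above the highest sham rat in all 6 PBBI rats. The former kept the call in 4 of the 11 fits without 1 rat, at 3.06 without PBBI rat 81 and 5.72 without sham rat 94, and the latter in 2, at 1.96 without PBBI rat 85. Nothing is said here of what they encode.

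Whether the change was particular to the injured side was asked with an interaction term fitted to the 22 libraries of both hemispheres. It called 54 of 16587 genes (0.326%), 51 (0.307%) with a higher and 3 (0.0181%) with a lower ipsilateral change, and 708 (4.27%) when the rat was entered as a block, since both libraries of a rat share the animal. With the block 489 (2.95%) had a higher and 219 (1.32%) a lower ipsilateral change. Without the block the count rested on single rats. It was 98 without PBBI rat 81, 255 without PBBI rat 83 and 58 without PBBI rat 85, but 0 without PBBI rats 88 or 90 or sham rats 82, 84 or 86, 1 without sham rats 91 or 94 and 2 without PBBI rat 96. An unadjusted p under 0.05 was reached by 1641 genes with all rats and by 1273 to 2061 without 1 rat, and DESeq2 called 357. Of the 659 genes called higher ipsilaterally, 51 were called for the interaction and 355 with the block, and of the 94 called lower, 3 and 47. Contralaterally 604 of the 659 had a value, with a median log2 fold change of 0.41, and the 94 lower genes had a median of -0.18, against -0.01 over all 15759 genes with both values. Both hemispheres come from the same rats, whose deviations from the group means correlated at 0.246 to 0.758, so these medians are not independent of the ipsilateral calls. Socs3 had a log2 fold change of 5.32 ipsilaterally and 1.26 contralaterally, a difference with an adjusted p of 0.0377, and of 8.14e-04 with the block. For Cxcl1 the values were 5.26 and -0.57, with adjusted p of 0.0333 and 0.00441. Prodh changed by -1.66 and -0.15, with adjusted p of 0.0345 and 0.0138.

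The groups are given side by side. Of the 15 chemokine genes 5 were called for the interaction and 10 with the block, and the contralateral median log2 fold change was -0.01. None of the 33 replication genes and none of the 59 mitosis genes was called for the interaction, although 25 and 39 of them had an unadjusted p under 0.05 in edgeR, and with the block 15 and 19 were called. Their contralateral medians were 0.35 and 0.69. Mki67 changed by 4.25 ipsilaterally and 1.76 contralaterally, with adjusted p of 0.324 for the difference and 0.0408 with the block. Mcm5 changed by 3.96 and 1.63, with adjusted p of 0.216 and 0.0247. Whether the groups differ from each other in this was not tested.

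**Figure D5:**
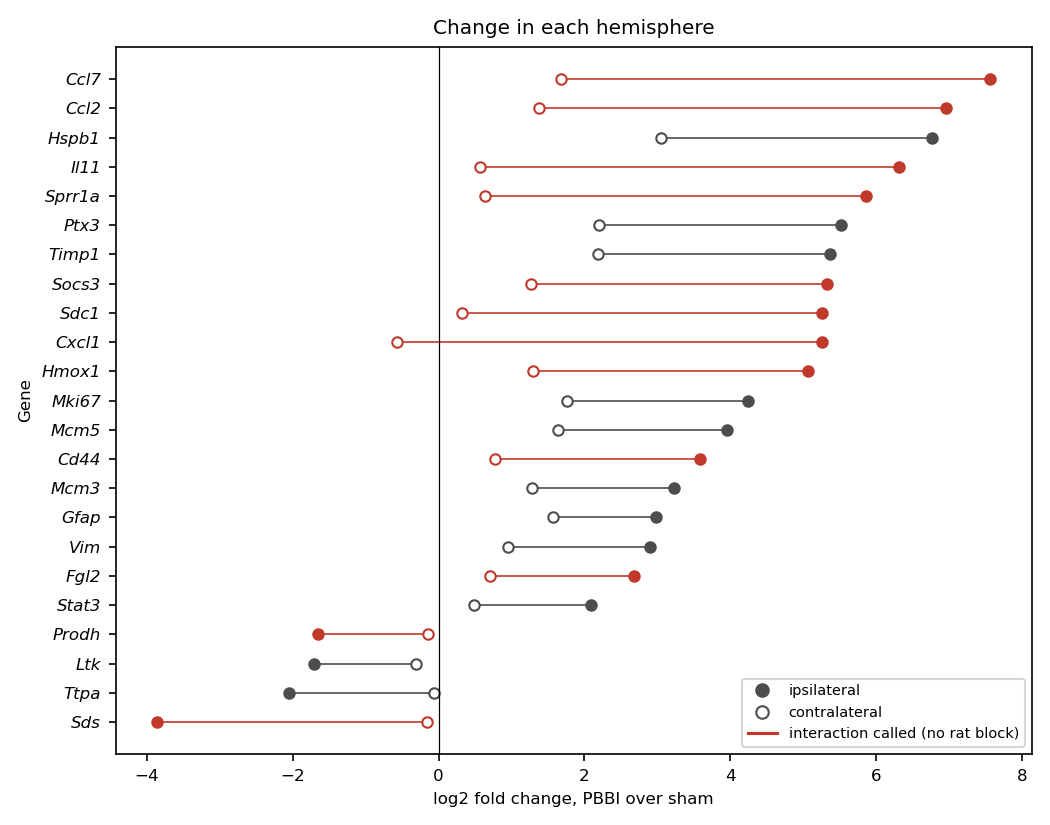
Log2 fold change of PBBI over sham in the ipsilateral (filled circle) and the contralateral cortex (open circle) for 23 named genes, ordered by the ipsilateral value. Genes called for the interaction of injury and hemisphere without the rat block are marked in red, among them Socs3, Cxcl1 and Prodh, and every contralateral point lies nearer to 0 than the ipsilateral point of its gene.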

How the data were processed

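RNA of cortical tissue from both hemispheres of 11 rats (6 PBBI, 5 sham) was sequenced from both ends after depletion of ribosomal RNA. Per the labels and the study's methods, the authors aligned reads with STAR 2.4.2a to Rnor_6.0 and counted them on Ensembl genes with featureCounts 1.4.3-p1. The authors deposited raw counts, without normalization, for 32545 gene identifiers, of which 23572 had counts in any sample, beside a column of another kind, the gene length, which was used here for no result. How strand and reads aligning to several places were counted is not given in the sources used here. Total counts on genes in the ipsilateral samples were 42085341 to 63412426. No molecular identifiers were named, so the counts are not independent molecules, and the floor of 3 counts covers counting error only.

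Samples were grouped by the treatment, hemisphere and animal number of the labels. Replicates are different rats. The week of surgery was not used here and no batch was fitted, and the labels and the methods differ on the days between electrode implantation and surgery. Symbols came from the study's supplementary gene tables for 1818 identifiers, and the RefSeq table of GRCr8 pairs no Ensembl identifiers. Promoter windows are of GRCr8 and were matched by symbol, and no coordinates of Rnor_6.0 are given.

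PBBI and sham were compared over the 11 ipsilateral samples by edgeR (4.0.16, R 4.3.3) and its quasi-likelihood test, with TMM factors and the genes that filterByExpr kept, and genes were called at a Benjamini-Hochberg adjusted p up to 0.05. The design follows the study's comparison, with edgeR in place of DESeq2. The square root of F gave the ratio of a log2 fold change to its standard error, and a prior count of 2 was added for log2 CPM. The interaction of injury and hemisphere was fitted over 22 samples. Samples of the same number are both hemispheres of the same rat, and the correlation of their deviations from the group means was 0.246 to 0.758 in the 11 rats, so the rat was also entered as a block. PBBI and sham share no rats, so no block applies to the ipsilateral comparison. Alternatives were RLE factors, keeping all genes, keeping genes with 10 or more counts in each sample, DESeq2 (1.42.0, with or without the normal prior), voom of limma (3.58.1, weighting samples by quality), 1 fit of all 22 samples, and leaving out each rat. The tests were tested on simulated data with known changes.

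Genes named are the 10 highest and 10 lowest log2 fold changes among called genes whose mean log2 CPM is 1 or more and whose groups do not overlap, those with the 10 smallest p-values, the 5 risen and 5 fallen genes with the smallest highest adjusted p over the 12 fits with and without 1 rat, the 3 highest and 3 lowest called genes without a symbol at the same mean, and members of 19 lists of gene groups and 14 lists of cell type markers. Some genes that these rules name are not reported here. The members and lists were chosen with earlier results of these data known.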

Additional observations from a re-analysis of the deposited data

Results flagged for a closer look

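In 286 groups of values, the PBBI and the sham rats for each of 143 genes named above, 13 held a sample far from the others by Dixon's ratio on log2 CPM, where chance flags about 1 in 20 groups. Of the 13, 4 were in PBBI rat 83, 2 in PBBI rat 85, 1 in PBBI rat 96, 4 in sham rat 91, 1 in sham rat 86 and 1 in sham rat 94. In PBBI rat 83, Cdt1 was at 2.57 CPM against 5.34 to 7.78 CPM in the other PBBI rats. Fgl2 was there at 30.7 CPM against 51.2 to 67.5 CPM, Tnfrsf1a at 18.0 CPM against 31.2 to 43.2 CPM and Ltk at 11.9 CPM against 6.51 to 7.65 CPM. Each of these lay on the side of the sham rats. In PBBI rat 85, Mki67 was at 3.90 CPM against 8.65 to 13.8 CPM in the others, and ENSRNOG00000050869 was at 244 CPM against 24.8 to 49.5 CPM. Mthfd1l was at 18.5 CPM in PBBI rat 96 against 26.5 to 31.5 CPM. In sham rat 91, Emp1 was at 6.59 CPM against 9.95 to 11.2 CPM in the other sham rats, Mcm10 at 0.160 CPM against 0.297 to 0.332 CPM, Nfkbia at 12.4 CPM against 24.4 to 29.4 CPM and Fn1 at 31.6 CPM against 20.6 to 22.7 CPM. Rela was at 17.8 CPM in sham rat 94 against 12.6 to 13.05 CPM, and S1pr3 at 3.84 CPM in sham rat 86 against 6.09 to 6.61 CPM.

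For 29 of the genes named above the change differed between hemispheres in the interaction test of edgeR without the rat block, at an adjusted p of 0.05 or less. The values are the ipsilateral minus the contralateral log2 fold change. Among chemokines and cytokine genes it was 5.90 for Ccl7, 5.58 for Ccl2, 3.90 for Ccl12, 5.81 for Cxcl1, 6.92 for Cxcl3, 5.75 for Il11, 3.95 for Il1r2, 4.15 for Clcf1, 3.53 for Tnfrsf12a and 4.06 for Socs3. For genes of coagulation, matrix and adhesion it was 3.56 for Plaur, 1.96 for Fgl2, 6.96 for Has1, 2.47 for Has2, 2.82 for Cd44 and 4.95 for Sdc1. It was 3.78 for Hmox1, 4.88 for Hspa1b, 5.04 for Fosl1, 2.50 for Myc, 2.30 for Adm, 2.28 for Emp1, 2.46 for Ncf4, 5.24 for Sprr1a, 3.54 for Calcb and 3.74 for LOC100910255. Among genes that fell it was -1.51 for Prodh, -3.71 for Sds and -1.25 for Adhfe1. The count of genes called for the interaction without the block fell to between 0 and 2 in 8 of the 11 fits that leave out 1 rat.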

How the results depend on the processing

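RLE normalization, no filter and at least 10 counts in every sample kept the ipsilateral count within 1.5 times the 753 genes reported. DESeq2 called 1698 genes (1340 higher, 358 lower) without a prior and 1678 (1319 and 359) with its normal prior, voom with sample quality weights 5014 (2401 and 2613), and all 22 samples in the same fit 1655 (1204 and 451). Leaving out 1 rat gave 316 (without sham rat 91) to 2186 genes (without PBBI rat 85), with 301 to 1361 higher and 15 to 825 lower. For the interaction, the rat block, which pairs both hemispheres of a rat, called 708 genes (489 with a higher and 219 with a lower ipsilateral change) against 54 without it, and DESeq2 357 (309 and 48). In the fit without the block, leaving out 1 rat gave 0 to 255 genes, with 0 to 191 and 0 to 64 in the respective directions. The count of 0 came without PBBI rats 88 or 90 or sham rats 82, 84 or 86. The fit with the block was not repeated without 1 rat. The cause of these shifts was not tested, beside the smaller number of rats in each fit without 1. None of the 143 genes named reversed its direction under any alternative run for the ipsilateral comparison. Across the alternatives that keep all rats, 2 of them lost the call in 1 setting each (Aldh1l1 with no filter, F7 under DESeq2 with its prior) and 26 that were not called passed in at least 1, and 32 lost the call without at least 1 rat. At least 10 counts in every sample could give no value for genes that it removes.

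The groups hold 5 and 6 rats, and 1 rat changes many calls. Genes with few counts in sham rats, such as F7 and Ucn2, were limited by depth, and their levels in sham are bounded only by the floor of 3 counts. Most named genes were named because the study had called them on these samples, so counts over gene groups describe the named members alone.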
